A study of Arabidopsis thaliana with 6 samples.

Results

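Aquaporins are membrane channels of the major intrinsic protein family, which was chosen with earlier results of these data known. All 35 family members of Arabidopsis thaliana were taken, by locus identifier, from tables of 32884 rows. They comprise 13 plasma membrane intrinsic proteins (PIP1 and PIP2), 10 tonoplast intrinsic proteins (TIP), 9 NOD26-like intrinsic proteins (NIP) and 3 small basic intrinsic proteins (SIP). All 35 loci had a row in every table. Names are written here in the hyphenated form of protein databases, so that TIP3-1 is the gene also spelled with a semicolon in the plant literature.

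Transcripts were measured by RNA sequencing in whole seeds of the accession Col-0, in 3 libraries of wild type and 3 of the mutant hda15-1, which is affected in the histone deacetylase gene HDA15. Seeds of both genotypes had been dried for about 1 month, took up water for 1 h, received 5 min of far-red light and were then kept in darkness at 22 °C for 12 h, so that no group here received red or white light after the pulse. HDA15 (AT3G18520) itself was at 16.1, 12.97 and 14.8 FPKM in the wild-type libraries and 0.338, 0.651 and 0.417 FPKM in those of hda15-1, which limma put at -3.41 ± 0.18 (SE) on the log2 scale, with an adjusted p of 3.79e-04, so every library fits its genotype label. Nothing in the labels ties the libraries to separate seed lots, so the p-values cover no more than sample-to-sample spread, which may be technical. Whole seeds mix embryo, endosperm and seed coat, and fewer cells of a type cannot be told apart from less RNA per cell.

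PIP proteins carry water across the plasma membrane, and TIP proteins carry it across the membrane of the vacuole. In seeds the vacuole stores protein, and its membrane holds TIP3 proteins, the seed-type channels. As a seedling grows, storage vacuoles give way to large lytic vacuoles with TIP1 and TIP2 proteins, which together with the PIP proteins form the growth-type class here. NIP proteins carry small neutral solutes such as boric acid and glycerol, and SIP proteins lie in the endoplasmic reticulum.

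The TIP3 genes supplied nearly all aquaporin transcript in both genotypes, and their upstream sequences are shown because they share a motif block that the other abundant members lack. The 250 bases before the annotated gene start were read from the TAIR10.1 genome, RefSeq annotation, on the plus strand for all 5 genes shown. Capitals mark RY motifs (CATGCA or TGCATG), which B3-domain seed factors such as ABI3 are known to bind, and PBE-boxes (CACATG or CATGTG), a type of E-box that PIF factors are known to bind. PIP1-2 and PIP2-7 are shown as the PIP genes with the most transcript, and TIP1-1, the classic vegetative vacuole channel, as a gene with almost none.
TIP3-1, chr1:27521694-27521943: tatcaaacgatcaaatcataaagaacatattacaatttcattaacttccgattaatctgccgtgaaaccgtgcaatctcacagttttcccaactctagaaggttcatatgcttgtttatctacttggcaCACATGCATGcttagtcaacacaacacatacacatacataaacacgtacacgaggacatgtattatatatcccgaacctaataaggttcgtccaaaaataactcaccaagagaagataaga
TIP3-2, chr1:6129775-6130024: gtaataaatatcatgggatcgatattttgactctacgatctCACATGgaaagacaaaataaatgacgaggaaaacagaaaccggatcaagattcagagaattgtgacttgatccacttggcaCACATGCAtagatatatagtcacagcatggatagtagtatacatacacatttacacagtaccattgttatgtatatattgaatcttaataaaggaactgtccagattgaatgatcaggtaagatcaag
PIP1-2, chr2:18909831-18910080: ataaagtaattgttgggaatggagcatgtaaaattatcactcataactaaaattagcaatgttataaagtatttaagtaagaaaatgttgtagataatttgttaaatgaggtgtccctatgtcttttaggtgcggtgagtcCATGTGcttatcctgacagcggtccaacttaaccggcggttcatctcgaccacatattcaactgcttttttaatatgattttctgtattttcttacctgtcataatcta
PIP2-7, chr4:16708111-16708360: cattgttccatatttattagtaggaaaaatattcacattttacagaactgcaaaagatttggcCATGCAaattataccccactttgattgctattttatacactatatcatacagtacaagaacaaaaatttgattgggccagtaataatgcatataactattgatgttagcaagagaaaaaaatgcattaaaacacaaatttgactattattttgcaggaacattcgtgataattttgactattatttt
TIP1-1, chr2:15445044-15445293: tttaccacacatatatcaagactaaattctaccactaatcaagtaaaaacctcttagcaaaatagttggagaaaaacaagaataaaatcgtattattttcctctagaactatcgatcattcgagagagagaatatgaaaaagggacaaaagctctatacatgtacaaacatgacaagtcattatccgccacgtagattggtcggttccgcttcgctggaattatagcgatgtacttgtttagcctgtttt

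Both TIP3 genes held the stretch acttggcaCACATGCAt, of 17 bases, starting 129 bases before the start of TIP3-1 and 136 bases before that of TIP3-2. Of 27443 upstream windows of protein-coding genes searched on both strands, 2 held this stretch, those of the TIP3 genes themselves. Among the 595 pairs of aquaporin genes, 2 shared a stretch at least as long, and the median of the longest shared stretch was 8 bases. Within it a PBE-box runs into an RY motif to give CACATGCA (TGCATGTG on the other strand), which 0.998% of all windows held. Of the 35 aquaporin genes, 3 held it, TIP3-1, TIP3-2 and the boric acid channel gene NIP6-1. The stretch was noticed after the sequences were compared, and a match is a description of letters, not of a bound site.

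RY motifs were in the windows of both TIP3 genes and of 8 of the other 33 members, against 8.43% of all windows. PBE-boxes were in the windows of 11 members, against 11.1% of all windows, and 4 members held both motifs. No member held the G-box CACGTG, which 6.49% of all windows held. The 2 RY matches of TIP3-1 overlap each other on opposite strands, and each composite match counts as both a PBE-box and an RY motif.

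**Figure D1:**
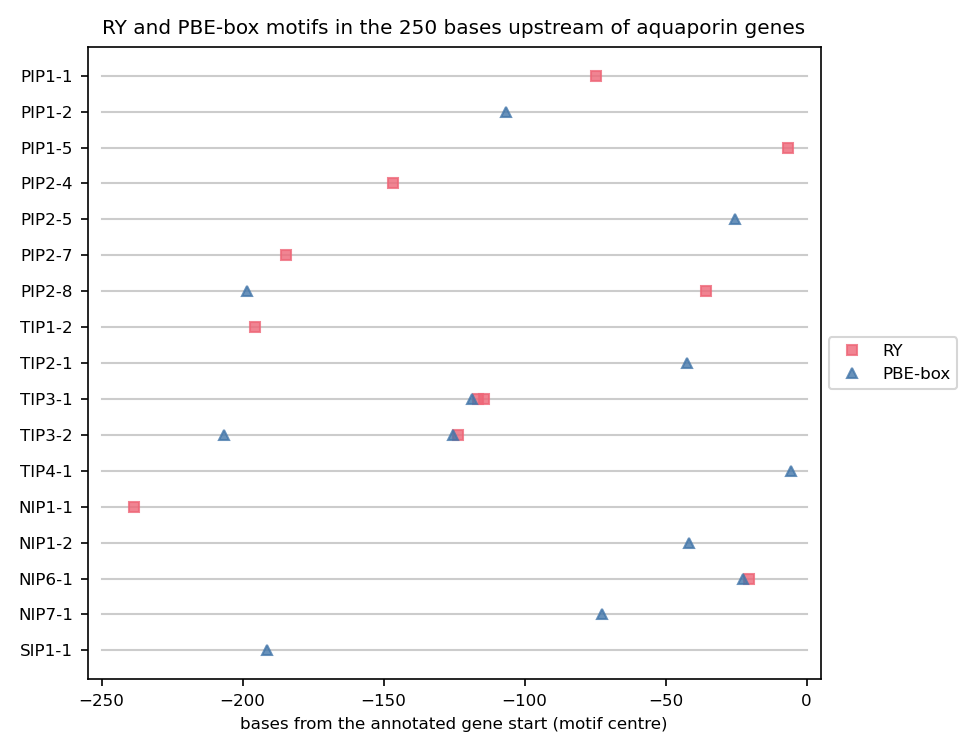
Position of RY motifs (squares) and PBE-boxes (triangles) in the 250 bases before the annotated start of each aquaporin gene that held at least 1 match, with distance from the start in bases on the x axis. The 2 TIP3 genes have adjoining marks of both kinds at a similar distance, within the stretch that begins 129 and 136 bases before their starts.

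Seed-type transcripts dominated the family in each of the 6 libraries. TIP3-1 and TIP3-2 together made up 89.3% of the summed aquaporin FPKM in wild type 1, 94.3% in wild type 2 and 95.01% in wild type 3. They made up 91.3% in hda15-1 1, 94.1% in hda15-1 2 and 93.3% in hda15-1 3. The groups overlapped, with means of 92.9% ± 3.12 (SD, n = 3) in wild type and 92.9% ± 1.44 (SD, n = 3) in hda15-1. FPKM is a level scaled to transcript length and to the mapped fragments of the library, so levels of different genes can be set side by side.

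TIP3-1 (AT1G73190, chromosome 1, 27521944 to 27523332, plus strand), the alpha-TIP of the protein storage vacuole, had the highest level of any aquaporin gene in every library. It stood at 2713, 3885 and 5516 FPKM across wild type, against 2740.3, 5641 and 6187 FPKM across hda15-1. The libraries numbered 1 were the lowest of each genotype, and the groups overlapped. Among all genes, its rank by FPKM lay between 15 and 28 in the 6 libraries. TIP3-2 (AT1G17810, chromosome 1, 6130025 to 6131627, plus strand), the beta-TIP, stood at 881, 1333 and 1248 FPKM in the wild-type libraries and, in turn, at 1128, 1246 and 1494 FPKM in those of hda15-1, with a rank between 73 and 156. TIP3-1 was above TIP3-2 in 6 of 6 libraries, by a ratio of 2.43 to 4.53. Their coding sequences were 78.9% identical and shared no stretch longer than 20 bases. An annotated gene on the other strand overlaps TIP3-1 by 290 bp, and 2 such genes overlap TIP3-2, by 564 and 91 bp. Whether counting used strand is not given in the sources used here, so reads in these overlaps cannot be assigned.

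Neither TIP3 gene passed the test between genotypes. The test was limma on log2(FPKM + 1), with p-values adjusted by Benjamini-Hochberg over the 15045 genes whose mean over the 6 libraries reached 1 FPKM, and a threshold of 0.05. The log2 fold change, hda15-1 minus wild type, was 0.24 ± 0.41 (SE) for TIP3-1, with a 95% interval from -0.70 to 1.18. For TIP3-2 it was 0.17 ± 0.25 (SE), with an interval from -0.41 to 0.76. Both adjusted p-values were 1.000. These intervals leave room for a change of up to 2.26-fold upward or down to a ratio of 0.616 for TIP3-1, so equal levels are not shown. Without wild type 1 both fold changes were just below 0, at -0.017 and -0.010. The value for TIP3-1 was 0.61 without hda15-1 1, and that for TIP3-2 was 0.29 without wild type 2.

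Embryo markers are given beside the TIP3 levels, since both are abundant seed transcripts. Nothing measured here assigns the TIP3 transcripts to a tissue. The summed FPKM of 6 embryo markers (4 albumin and 2 oleosin genes) was 22926, 27559 and 35174 in wild type and 27265, 41187 and 40247 in hda15-1. The libraries numbered 1 had the lowest sum of each genotype, as they did for both TIP3 genes. This did not hold for each marker. SESA3 was the largest of the 6, between 10026 and 22913 FPKM, and SESA3 and SESA4 were lowest of wild type in wild type 2. Both oleosin genes were highest of their genotype in hda15-1 1. In hda15-1 OLEO1 was at 9940, 6188 and 4959 FPKM and OLEO2 at 3002, 2623 and 1514 FPKM. TIP3 transcripts came to 15.7%, 18.9% and 19.2% of that sum in wild type and to 14.2%, 16.7% and 19.1% in hda15-1. All 6 embryo markers were detected in every library, with fold changes above 0 for each and none past the threshold. Summed endosperm markers lay between 6918 and 11162 FPKM in wild type and between 7575 and 11461 FPKM in hda15-1, with 1 of the 4, ZOU, listed at 0 throughout. This sum is nearly all EPR1, which averaged 9058 FPKM over the 6 libraries, against 246 for MFT and 19.1 for MAN7. Summed seed coat markers were at 1.05 to 2.22 FPKM in wild type and 1.13 to 2.45 FPKM in hda15-1, with BAN and TT8 listed at 0 throughout. Nearly all of it came from MUM4, since TT12 and TT10 were above 0 in only 1 library each. The part of tissue makeup in the TIP3 levels was not tested.

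The growth-type tonoplast genes were close to the detection limit. The 6 TIP1 and TIP2 genes together summed to 0.883, 0.331 and 0.4005 FPKM in wild type and to 1.001, 1.12 and 1.39 FPKM in hda15-1. The 3 hda15-1 sums were above the 3 wild-type sums, with wild type 1 the closest to them. From the size of the lowest values, these sums correspond to about 11, 4.9 and 5.8 reads in wild type and 15, 14 and 16 reads in hda15-1, so each gene rests on a handful of reads. None of the 6 reached the mean of 1 FPKM needed for the test.

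TIP1-2 (AT3G26520), a vacuolar channel of growing tissue, was at 0.388, 0.154 and 0.153 FPKM across wild type, against 0.472, 0.462 and 0.531 FPKM across hda15-1. TIP2-2 (AT4G17340), of the delta type, was listed at 0.177, 0 and 0 FPKM in the wild-type libraries and, in turn, at 0.291, 0.346 and 0.656 FPKM in those of hda15-1. For both genes the groups did not overlap, with every hda15-1 library higher. TIP1-1 (AT2G36830) was listed at 0.0953, 0 and 0.0760 FPKM across wild type, against 0.152, 0 and 0.204 FPKM across hda15-1, which overlap. TIP2-1 (AT3G16240) was at 0.223, 0.177 and 0.172 FPKM in the wild-type libraries and listed at 0.0860, 0.307 and 0 FPKM in those of hda15-1, which also overlap. TIP1-3, known from pollen, and TIP2-3 were listed at 0 in all 6 libraries. Of the 13 members below the minimum mean with a value above 0 somewhere, 3 had all hda15-1 libraries above all wild-type libraries, TIP1-2, TIP2-2 and PIP2-3, and 0 had them all below. Among the 6581 genes of that kind in the whole table, 5.96% had all hda15-1 libraries higher. The share with all of them lower was not counted, so the counts for these members are not evidence of a direction.

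**Figure D2:**
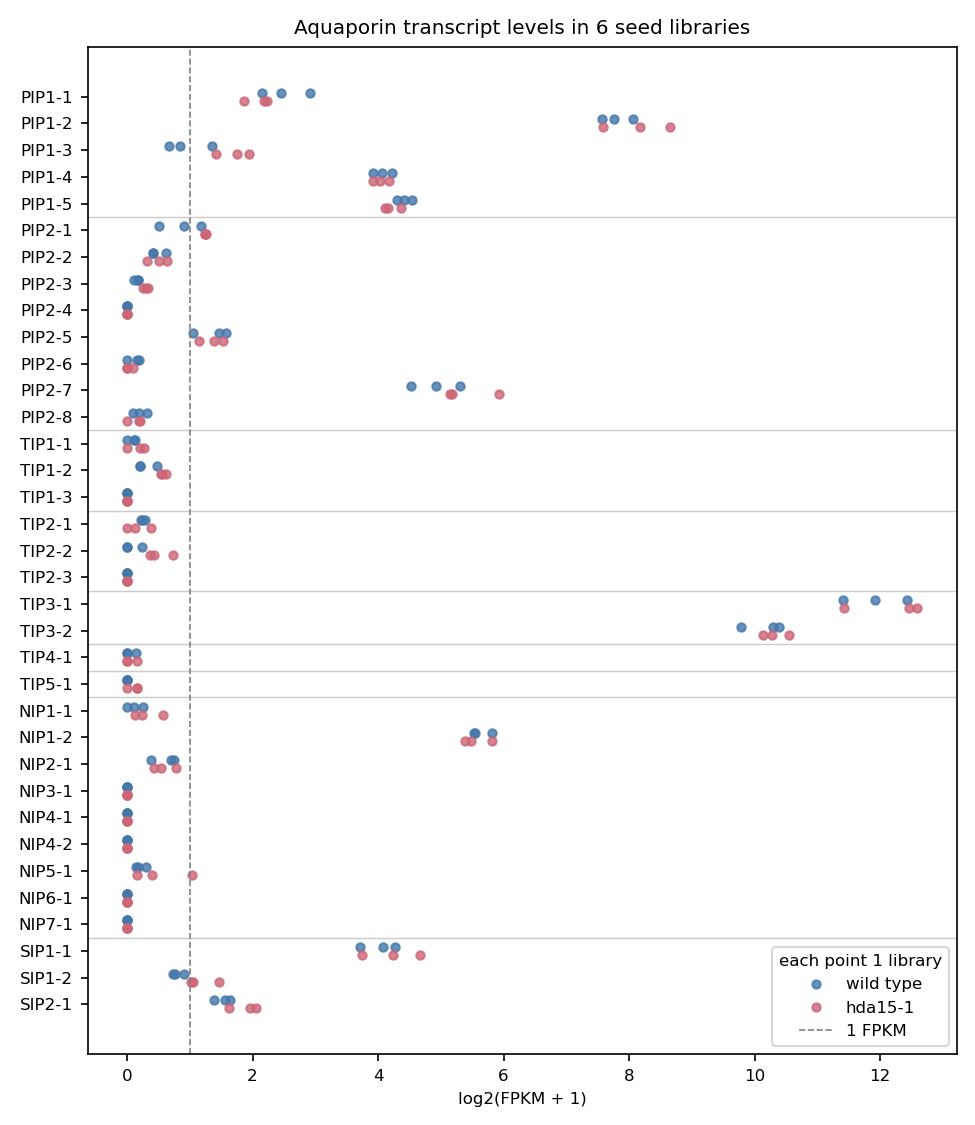
Level of each of the 35 aquaporin genes as log2(FPKM + 1) on the x axis, 1 point per library, with wild type in blue and hda15-1 in red; the dashed line marks 1 FPKM and grey lines part the subfamilies. The TIP3 genes lie far to the right of every other member, PIP1-2 comes next, and the TIP1 and TIP2 genes lie left of the dashed line.

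Growth-type genes of the plasma membrane were present but did not pass the test. All 5 PIP1 genes and 3 of 8 PIP2 genes reached the minimum mean, and 0 of these 8 were called in either direction. Of these 8, 4 had a fold change above 0 and 4 below, where 54.4% of all genes tested were above 0. The median log2 fold change of the 8 was 0.16, against a median of 0.02 over all genes tested. It was 0.056 without hda15-1 3, 0.26 without wild type 1, 0.082 with libraries scaled to the same sum, 0.059 with a pseudocount of 5 and 0.038 with no filter on low genes. PIP1-3 and PIP2-1 entered it only through their hda15-1 values. Over the whole family 14 members were tested and 0 passed, where 0.219% of all genes tested passed in limma, 0.199% of all genes being higher and 0.0199% lower in hda15-1. At an unadjusted p under 0.05 there was 1 of the 14, PIP1-3, against 4.28% of all genes. All 3 hda15-1 libraries lay above all 3 wild-type libraries for 3 of the 14, PIP1-3, PIP2-1 and SIP1-2, and below them for 0 of the 14. Each of these 3 genes had a wild-type mean below 1 FPKM and reached the minimum mean only through hda15-1, so neither this count nor that of unadjusted p-values is evidence of a direction. Over all genes tested, 5.78% had all hda15-1 libraries higher and 3.43% had them lower, 9.21% together.

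PIP1-2 (AT2G45960, chromosome 2, 18910081 to 18911982, plus strand) was the most abundant PIP, at 267, 189 and 215 FPKM across wild type, against 191, 287 and 401 FPKM across hda15-1. These groups overlapped, since hda15-1 1 was about as low as wild type 2. Its log2 fold change was 0.34 ± 0.29 (SE), with a 95% interval from -0.34 to 1.02. With single libraries left out it ran from 0.080 without hda15-1 3 to 0.61 without hda15-1 1, and over all alternatives it reached 0.748. PIP2-7 (AT4G35100, chromosome 4, 16708361 to 16710407, plus strand), the most abundant PIP2, was at 38.7, 21.9 and 29.5 FPKM in the wild-type libraries and 60.1, 35.2 and 34.3 FPKM in those of hda15-1. Wild type 1 stood above 2 of the 3 hda15-1 libraries. Its log2 fold change was 0.50 ± 0.29 (SE), with an interval from -0.16 to 1.16, and was 0.24 without hda15-1 1 and 0.30 without wild type 2.

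PIP1-3 (AT1G01620, chromosome 1, 225665 to 227543, minus strand) had the smallest p of the family. It was at 1.56, 0.595 and 0.794 FPKM across wild type, against 2.37, 2.85 and 1.66 FPKM across hda15-1. The lowest hda15-1 library was just above wild type 1. The log2 fold change was 0.75 ± 0.25 (SE), with a 95% interval from 0.17 to 1.32 before adjustment for many genes and an adjusted p of 0.878 in limma. It was 0.29 with a pseudocount of 5 and 1.21 with one of 0.1. PIP2-1 (AT3G53420), a main water channel of roots and leaves, was at 1.25, 0.879 and 0.421 FPKM in the wild-type libraries and 1.38, 1.37 and 1.35 FPKM in those of hda15-1. Here too the groups parted by a narrow margin above wild type 1, and limma gave 0.38 ± 0.22 (SE) with an adjusted p of 1.000, or 0.20 without wild type 3.

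The remaining 3 PIP1 genes had fold changes below 0 and did not pass. PIP1-1 (AT3G61430) was at 6.52, 3.44 and 4.46 FPKM across wild type, against 3.56, 3.71 and 2.62 FPKM across hda15-1, with a log2 fold change of -0.41 ± 0.24 (SE), or -0.21 without wild type 1. PIP1-4 (AT4G00430) was at 17.7, 14.1 and 15.6 FPKM in the wild-type libraries and 17.01, 15.3 and 14.2 FPKM in those of hda15-1. PIP1-5 (AT4G23400) was at 18.8, 20.4 and 22.2 FPKM across wild type, against 16.8, 19.6 and 16.2 FPKM across hda15-1. In each of these 3 genes the groups overlapped. The log2 fold change was -0.03 ± 0.17 (SE) for PIP1-4, with a 95% interval from -0.42 to 0.36, and its sign turned without wild type 1 or hda15-1 3. For PIP1-5 it was -0.21 ± 0.17 (SE), with an interval from -0.60 to 0.17.

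Among the other PIP2 genes, PIP2-5 (AT3G54820) was at 1.06, 1.98 and 1.78 FPKM in the wild-type libraries and 1.21, 1.89 and 1.601 FPKM in those of hda15-1, a log2 fold change of -0.01 ± 0.22 (SE) whose sign turned without wild type 2, wild type 3 or hda15-1 1. PIP2-2 and PIP2-3 are neighbours on chromosome 2, 2612 bp apart, with coding sequences that are 94.8% identical and share a stretch of 242 bases, so reads between them cannot be assigned with confidence. PIP2-2 was between 0.247 and 0.546 FPKM in the 6 libraries. PIP2-3, known as the desiccation-responsive gene RD28, was at 0.0812, 0.128 and 0.127 FPKM across wild type, against 0.196, 0.234 and 0.262 FPKM across hda15-1, which do not overlap but come to at most about 2.87 reads. PIP2-6 and PIP2-8 did not exceed 0.243 FPKM in any library, and PIP2-4 was listed at 0 throughout.

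**Figure D3:**
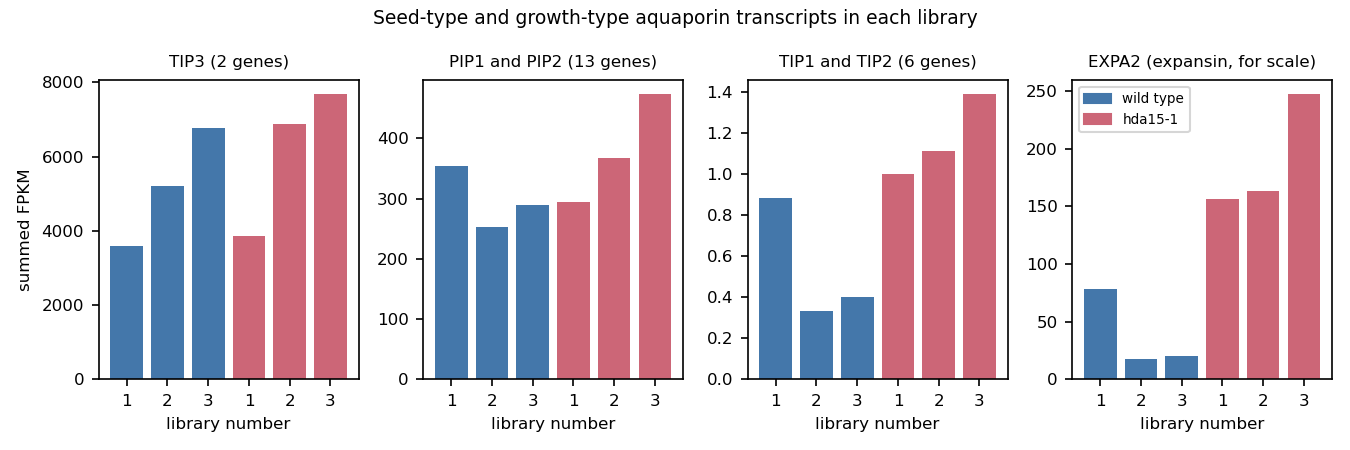
Summed FPKM in each library for the 2 TIP3 genes, the 13 PIP genes and the 6 TIP1 and TIP2 genes, with the expansin gene EXPA2 for scale; bars are single libraries, blue for wild type and red for hda15-1, and each panel has its own axis from 0. TIP3 and PIP sums overlap between genotypes, whereas the TIP1 and TIP2 sums are higher in the 3 hda15-1 libraries at levels below 1.4 FPKM.

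The balance of growth-type to seed-type transcripts was compared within each library, where a common scale factor largely cancels. The mean log2(FPKM + 1) level of the 8 tested PIP genes minus that of the TIP3 genes was -7.05, -7.94 and -8.04 in wild type and -7.26, -7.79 and -8.11 in hda15-1. The groups overlapped, with wild type 1 the highest and hda15-1 3 the lowest of all, and had means of -7.67 ± 0.55 (SD, n = 3) and -7.72 ± 0.43 (SD, n = 3). Summed PIP transcripts came to 9.84%, 4.86% and 4.29% of summed TIP3 transcripts in wild type and to 7.61%, 5.34% and 6.17% in hda15-1. The libraries numbered 1 had the highest share in each genotype. The difference in the log2 balance was -0.04, and leaving out 1 library moved it between -0.27, without hda15-1 1, and 0.27, without wild type 1. PIP1-3 and PIP2-1, among the 8 PIP genes, reached the minimum mean only through hda15-1, so this difference is not free of that selection. At a minimum mean of 5 FPKM, which left out both and also PIP1-1 and PIP2-5, the difference was -0.057.

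Solute channels of the NIP group were represented by 1 abundant gene. NIP1-2 (AT4G18910), a channel for aluminium malate in roots, was at 55.1, 45.5 and 45.3 FPKM in the wild-type libraries and 55.6, 40.7 and 43.7 FPKM in those of hda15-1, with a log2 fold change of -0.07 ± 0.19 (SE) and a 95% interval from -0.51 to 0.38, its sign turning without wild type 1 or hda15-1 2. The libraries numbered 1 were the highest of each genotype, the reverse of their place for TIP3-1. NIP5-1, the boric acid channel of roots, was at 0.108, 0.133 and 0.231 FPKM across wild type, against 1.05, 0.321 and 0.116 FPKM across hda15-1, where hda15-1 1 alone was high. NIP1-1 and NIP2-1 stayed at or below 0.719 FPKM, and NIP3-1, NIP4-1, NIP4-2, NIP6-1 and NIP7-1 were listed at 0 in every library. Of the partner boron exporter genes, BOR2 was at a mean of 4.45 ± 0.593 FPKM (SD, n = 3) for wild type, against 4.47 ± 1.69 FPKM (SD, n = 3) for hda15-1 and did not pass, and BOR1 and BOR4 were below the minimum mean.

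All 3 SIP genes were tested and none passed. SIP1-1 (AT3G04090) was at 18.3, 12.1 and 15.9 FPKM in the wild-type libraries and 12.5, 17.8 and 24.5 FPKM in those of hda15-1. Its log2 fold change was 0.20 ± 0.27 (SE), or -0.028 without hda15-1 3. SIP1-2 (AT5G18290) was at 0.668, 0.876 and 0.691 FPKM across wild type, against 1.08, 1.77 and 1.02 FPKM across hda15-1, which do not overlap, with limma giving an adjusted p of 1.000 and a log2 fold change of 0.38 ± 0.21 (SE). It reached the minimum mean only through hda15-1 and fell short of it without hda15-1 2. SIP2-1 (AT3G56950) was at 1.62, 1.96 and 2.13 FPKM in the wild-type libraries and 2.09, 3.14 and 2.89 FPKM in those of hda15-1, with hda15-1 1 inside the wild-type range. SIP1-2 and SIP2-1 each overlap annotated genes on the other strand. The last tonoplast genes, TIP4-1 and the pollen gene TIP5-1, did not exceed 0.122 FPKM. In all, 8 of the 35 members were listed at 0 in every library, and such zeros can be failed estimates.

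**Figure D4:**
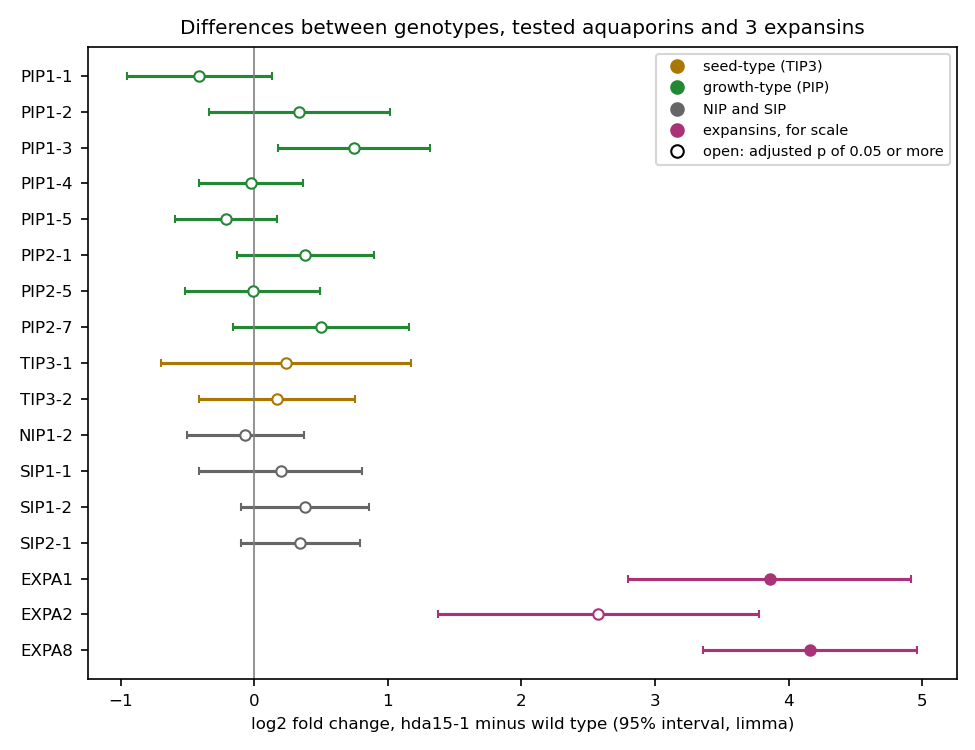
Difference in log2(FPKM + 1) between the genotypes, positive where hda15-1 is higher, with its 95% interval in limma for the 14 tested aquaporin genes and 3 expansin genes; filled points passed an adjusted p of 0.05. All 14 aquaporin points are open and lie between -0.41 and 0.75, whereas the expansin points lie between 2.58 and 4.16.

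Wall-loosening genes of the same libraries, chosen with earlier results of these data known, are given for scale. They do not show the smallest difference that the design could call. Expansins loosen the walls of growing cells. EXPA8, an expansin gene, was at 2.77, 0.499 and 0.499 FPKM across wild type, against 32.8, 35.2 and 38.7 FPKM across hda15-1 (adjusted p = 4.27e-03, limma). EXPA1 also passed, at 4.04, 1.96 and 1.76 FPKM in the wild-type libraries and 101, 44.3 and 26.2 FPKM in those of hda15-1 (adjusted p = 0.0196, limma), but not without wild type 2, wild type 3 or hda15-1 2 (adjusted p of 0.1197, 0.0796 and 0.105), nor with no filter on low genes (0.0569) or libraries scaled to the same sum (0.0614). EXPA2, at 78.6, 17.2 and 19.9 FPKM across wild type, against 156, 164 and 247 FPKM across hda15-1, passed only without wild type 1 (adjusted p = 0.223 with all libraries and 8.94e-03 without it, limma) or in the 4 libraries numbered 2 and 3.

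Genes of vacuolar proton pumps, aquaporin trafficking and modification, boron export and seed maturation were examined in 4 further lists. In limma, 0 of their tested members passed. With the 3 lists of tissue markers this made 35 tested genes, of which 1, ABI4, had an unadjusted p under 0.05, against 4.28% of all genes. Their median log2 fold change was 0.12. All hda15-1 libraries lay above all wild-type libraries for 3 of the 35, VHP1, VHA-A and ABI4, and below them for 1, OST1, against 5.78% and 3.43% of all genes tested. Without hda15-1 1 the log2 fold change of VHA-A was 0.20, against 0.31 with all libraries. Over all genes tested, 54.4% had a fold change above 0. Of 12 vacuolar proton pump genes tested, 7 had a fold change above 0 and 5 below, with a median of 0.12. VHP1 (AT1G15690), the vacuolar pyrophosphatase, was at 325, 249.8 and 286 FPKM in the wild-type libraries and 440.2, 369 and 327 FPKM in those of hda15-1, just separate, with a log2 fold change of 0.40 ± 0.21 (SE). VHA-A, the catalytic subunit of the vacuolar ATPase, was at 104, 123 and 117 FPKM across wild type, against 166, 127 and 136 FPKM across hda15-1. VHA-E1, a stalk subunit of that ATPase, was at 108, 96.3 and 89.1 FPKM in the wild-type libraries and 99.8, 101 and 165 FPKM in those of hda15-1, where hda15-1 3 alone was high. Of 8 genes for aquaporin trafficking and modification, 5 were above 0 and 3 below, with a median of 0.01. RMA1, a ubiquitin ligase that acts on PIP2 proteins, was at 15.5, 17.4 and 16.9 FPKM across wild type, against 18.97, 17.3 and 21.4 FPKM across hda15-1, which overlap. OST1, a kinase known to phosphorylate PIP2-1 in guard cells, was at 1.63, 1.62 and 1.53 FPKM in the wild-type libraries and 1.17, 1.501 and 1.45 FPKM in those of hda15-1, separate by a narrow margin. SYP61, a syntaxin in PIP2-7 delivery, was at a mean of 15.1 ± 2.68 FPKM (SD, n = 3) for wild type, against 17.8 ± 6.16 FPKM (SD, n = 3) for hda15-1. TSPO, a membrane protein known to lead PIP2-7 to degradation, was abundant at a mean of 1274 ± 283 FPKM (SD, n = 3) for wild type, against 1390.2 ± 156 FPKM (SD, n = 3) for hda15-1, and is named outside the rule for its link to PIP2-7.

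Seed maturation factors, a list of regulators of seed storage genes and of abscisic acid signalling, gave 4 tested genes of 7. ABI3 (AT3G24650), the B3 factor named above, was at 146, 177 and 183 FPKM across wild type, against 243, 152 and 129 FPKM across hda15-1, a log2 fold change of 0.00 ± 0.26 (SE). Wild type 1 was the lowest wild-type library for both ABI3 and TIP3-1, whereas hda15-1 1 was the highest of its genotype for ABI3 and the lowest for TIP3-1. ABI4, an AP2 factor of abscisic acid signalling, had the smallest p of the 4 lists, at 7.896, 8.86 and 6.45 FPKM in the wild-type libraries and 14.1, 10.6 and 11.6 FPKM in those of hda15-1 (adjusted p = 0.834, limma). bZIP53, which activates albumin genes, was at a mean of 71.3 ± 25.6 FPKM (SD, n = 3) for wild type, against 91.3 ± 46.3 FPKM (SD, n = 3) for hda15-1, with wide spread in both. ABI5, a bZIP factor of abscisic acid signalling, was at a mean of 111 ± 7.17 FPKM (SD, n = 3) for wild type, against 104 ± 11.6 FPKM (SD, n = 3) for hda15-1. LEC1 and LEC2, which act in the developing embryo, were listed at 0 throughout, and FUS3 was below the minimum mean.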

How the data were processed

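For each library the authors deposited FPKM values by gene, as labelled in the file headers. Bowtie 0.12.2, Cufflinks, Cuffdiff and TAIR10 are listed in the submitters' processing notes, with no settings. For read length, annotation version and strand, nothing is stated in the sources used here. Of 32884 rows, 32538 matched a locus of the TAIR10.1 annotation, which gave positions, lengths and sequences. The tables hold no coordinates. Read totals are unknown. The most common ratio between low values of a gene in different libraries gave relative depths of 0.927 to 1.24, with wild type 1 set to 1. At a length of 1 kb, a single read then equals some 0.0833 to 0.111 FPKM. FPKM sums lay between 879239 and 1159520 per library.

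limma 3.58.1 in R 4.3.3 was run two-sided on log2(FPKM + 1), with genotype as the only term and the variance trend on, for the 15045 genes that averaged 1 FPKM or more. This scale understates the change of low genes. Approximate reads are FPKM divided by the value of 1 read at that transcript's length. Coding sequences were aligned globally in pairs.

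The members and the 7 lists (45 genes) were chosen with earlier results of these data known. The rule for named genes took HDA15, both TIP3 members, members past the threshold and up to 14 other tested members, up to 3 genes with the smallest p from each list, and 3 expansins. ABI3 and TSPO are named outside it, after their values were seen. Marker lists are given as sums. With 3 libraries against 3, an exact permutation test of 1 gene cannot go below p = 0.1. Alternatives covered the pseudocount, filter, scaling, variance model, replicate block and each library left out. The 4 libraries numbered 2 and 3 alone were added after the data were seen.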

Additional observations from a re-analysis of the deposited data

How the results depend on the processing

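No aquaporin gene and no list gene passed the threshold in limma under any of the 16 alternatives, and the lowest adjusted p of a member was 0.229, for PIP1-3. With single libraries left out, the TIP3 mean log2 fold change, 0.21 with all, ran from -0.014 (without wild type 1) to 0.44. The growth-type median, 0.16 with all, ran from 0.056 to 0.26. The difference in TIP3 share, 0.0397 percentage points with all, ran from -1.75 (without wild type 1) to 1.11 points. The difference in balance, -0.04 with all, ran from -0.27 to 0.27, and was 0.049 with a pseudocount of 0.1. Of 217 values of tested members under alternatives, 10 had the other sign, each with 1 library left out. With single libraries left out, the log2 fold change of PIP1-4 ran from -0.10 to 0.053, of PIP2-5 from -0.17 to 0.094, of TIP3-1 from -0.017 to 0.61, of TIP3-2 from -0.010 to 0.29, of NIP1-2 from -0.20 to 0.026 and of SIP1-1 from -0.028 to 0.43. For the list genes it ran from -0.067 to 0.38 for SYP61, -0.087 to 0.58 for bZIP53 and -0.27 to 0.12 for BOR2. Both TIP3 genes turned below 0 without wild type 1, SIP1-1, SYP61 and bZIP53 without hda15-1 3. The cause of these turns was not tested. The number of genes called higher in the whole table was 30. It was 13 at a minimum mean of 5 FPKM, which tested fewer genes, 18 with libraries scaled to the same sum, 13 with a replicate block, and 73 in the libraries numbered 2 and 3, where 12 were lower against 3. Leaving out 1 library gave 8 higher (without hda15-1 2) to 31 and 3 to 5 lower genes. Between pseudocounts of 5 and 0.1 the fold change ran from 0.13 to 0.73 for PIP2-1 and from 0.13 to 0.68 for SIP1-2. Scaling to the same sum moved the median of all genes from 0.02 to -0.06. Over all genes tested, samples with the same number did not deviate together, with correlations of -0.08, -0.11 and -0.16. No wild-type library correlated best with its own number. These deviations are from means of only 3 libraries, and whether samples with the same number share a batch was not tested. The replicate block changed no aquaporin call. Genes below about 0.5 FPKM rest on a few reads, which limits any statement on TIP1 and TIP2.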
